A study of Mus musculus with 32 samples.

Results

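The interferon response and MHC class I genes examined here are 34 genes chosen by name from the 24028 gene symbols of the RNA-seq tables. Their RNA was measured in WT mESCs and in mESCs labelled Eed-/-, with 1 library per genotype, so there is no replicate and no difference below was tested. They were divided by role into 7 transcription factors, 4 genes for sensors and their adaptor, 15 interferon-induced genes and 8 genes of antigen presentation. mESCs are embryonic stem cells of the mouse, and EED is a core subunit of PRC2, the Polycomb complex that methylates lysine 27 of histone H3. The labels give TT2 as the line of both RNA-seq libraries. Eed-/- samples of the other assays carry another line name, and what the Eed mutation of the RNA-seq line is was not given in the sources used here. Both cultures were grown on gelatin in DMEM with FBS and LIF, and the protocols mention no interferon or virus.

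Interferons are secreted proteins that cells release after sensing viral RNA or DNA. They bind receptors that signal through JAK kinases to a complex that holds STAT2 and IRF9 and binds a DNA element called the interferon-stimulated response element (ISRE), from which antiviral genes are switched on. Another element of interferon-responsive promoters is the gamma-activated site (GAS). MHC class I molecules, made of a heavy chain and beta-2-microglobulin, show peptides from inside the cell to cytotoxic T cells. Pluripotent cells are known for a weak interferon response, for few class I molecules at their surface and for constant expression of a small number of antiviral genes.

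Levels are given as deposited FPKM (fragments scaled to transcript length and to library size). Comparisons of level between genes are limited, because some genes that every cell uses were listed very low. Gapdh had 1.13 in WT and Rps28 was at 0, against 1616 for Actb. A change is the difference in log2(FPKM + 1) after quantile normalization, the library labelled Eed-/- minus WT, and was computed where the mean of both normalized values reached 0.1. The added 1 shrinks changes of low genes. Genes past 2-fold on this scale are called higher or lower. Depth recovered from the steps of low values was close to 7240000 fragments in WT, with 6460000 in the library labelled Eed-/-. With these fragment numbers the ratio of normalized FPKM was given a 95% exact conditional binomial interval, which covers counting error only and not the spread between cultures. Eed itself had an FPKM of 63.0 in WT against 70.9 in the library labelled Eed-/-, so its RNA was not lower there, and the label could not be checked by it.

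Promoters of some of the genes that the results turn on are printed here to show the interferon elements. The window of Ifitm1, at chr7:148153725-148154024 and not printed, held neither ISRE nor GAS letters. It lies inside the gene, whose annotated start at chr7:148153120 was not scanned. The capitals mark ISRE letters (GAAANNGAAA), GAS letters (TTCNNNGAA) and, in the antigen presentation genes only, the CCAAT box, all on either strand and with overlaps kept. Each stretch runs from 150 bases before to 30 bases after the RefSeq start (table of GRCm38.p6) and was placed on mm9 by an exact match. The first group holds 4 interferon-induced genes, of which Isg15 was listed at 0 in WT and the others were among the most abundant members.
Isg15: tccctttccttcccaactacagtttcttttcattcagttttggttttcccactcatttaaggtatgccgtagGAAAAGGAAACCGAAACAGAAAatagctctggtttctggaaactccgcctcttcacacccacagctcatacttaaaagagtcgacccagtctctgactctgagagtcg
Bst2: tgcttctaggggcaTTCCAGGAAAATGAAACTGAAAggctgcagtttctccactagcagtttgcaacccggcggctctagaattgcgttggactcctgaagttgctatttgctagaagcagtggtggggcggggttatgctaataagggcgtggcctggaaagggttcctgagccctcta
Ifitm2: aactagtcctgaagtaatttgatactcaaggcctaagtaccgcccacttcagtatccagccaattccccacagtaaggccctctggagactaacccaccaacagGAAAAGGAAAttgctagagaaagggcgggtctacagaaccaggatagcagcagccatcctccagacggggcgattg
Ifitm3: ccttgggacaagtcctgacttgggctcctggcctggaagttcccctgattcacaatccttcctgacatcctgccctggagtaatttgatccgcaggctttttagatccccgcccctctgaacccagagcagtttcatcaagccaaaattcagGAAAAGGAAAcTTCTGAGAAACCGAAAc
They lie on mm9 with Isg15 at chr4:155574898-155575077 on the minus strand, Bst2 at chr8:74061342-74061521 on the minus strand, Ifitm2 at chr7:148141831-148142010 on the minus strand and Ifitm3 at chr7:148196614-148196793 on the minus strand. In Isg15, 3 ISRE matches overlap between positions -78 and -57 from the start. Bst2 has 2 overlapping ISRE matches and a GAS match that overlaps the first of them. Ifitm2 has 1 ISRE match, from position -46 to -37. In Ifitm3, 2 ISRE matches and a GAS match lie just after the start, between bases 3 and 29.

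The second group holds the light chain and the heavy chain genes with an FPKM above 2.
B2m: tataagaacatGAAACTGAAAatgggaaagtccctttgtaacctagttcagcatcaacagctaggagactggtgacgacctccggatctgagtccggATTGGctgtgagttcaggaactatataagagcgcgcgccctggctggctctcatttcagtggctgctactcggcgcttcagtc
H2-K1: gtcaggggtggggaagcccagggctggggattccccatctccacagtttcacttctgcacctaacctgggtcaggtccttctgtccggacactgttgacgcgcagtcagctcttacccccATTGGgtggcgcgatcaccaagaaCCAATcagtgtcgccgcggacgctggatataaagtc
H2-D1: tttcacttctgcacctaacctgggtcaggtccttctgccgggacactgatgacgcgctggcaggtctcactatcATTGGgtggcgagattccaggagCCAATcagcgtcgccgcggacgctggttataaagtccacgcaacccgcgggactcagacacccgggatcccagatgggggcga
They lie on mm9 with B2m at chr2:121973273-121973452 on the plus strand, H2-K1 at chr17:34137249-34137428 on the minus strand and H2-D1 at chr17:35399889-35400068 on the plus strand. B2m has an ISRE match from position -139 to -130 and a CCAAT box. H2-K1 and H2-D1 each have a pair of CCAAT boxes that face opposite ways, and the strict ISRE letters were not found in them, which says nothing of looser forms of the element.

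Of the 34 members, 28 had a promoter window of 300 bases in the table. ISRE letters were found in 13 of them (46.4%), against 3.99% of all 27018 symbols of the table. GAS letters were found in 6 (21.4%), against 9.55% of all symbols. The CCAAT box was found in 14 (50%), against 41.1% of all symbols, and in all 6 antigen presentation genes with a window. Among the members with a window, the ISRE letters stood in 7 of the 12 with an FPKM under 1 in both libraries, such as Isg15, Ifit1, Ifit3 and Rsad2. They also stood in 6 of the 15 with an FPKM of at least 2 in both, such as Ifitm2, Ifitm3, Bst2, B2m and Stat2. Among the rest of these 15, without the ISRE letters, were Ifitm1, Irf1, Irf9, Mavs, H2-K1 and H2-D1. The windows of Ifitm1, Irf9, H2-D1 and Tapbp lie inside the genes as annotated. For these genes the annotated start itself was not scanned. A match is a run of letters and not a measured binding site.

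By deposited FPKM, with the limit given above on levels between genes, RNA of the members was concentrated in a few genes. Their FPKM summed to 578 in WT against 520 in the library labelled Eed-/-. Ifitm1, Ifitm2, Ifitm3 and Bst2, which encode membrane proteins that hinder the entry or release of viruses, made up 83.3% and 84.4% of these sums. FPKM was at least 2 in both libraries for 15 members and under 1 in both for 18. The other 1, Tap1, lay between, and no member crossed an FPKM of 2 from one library to the other, as the plot of all 34 levels shows.

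**Figure D1:**
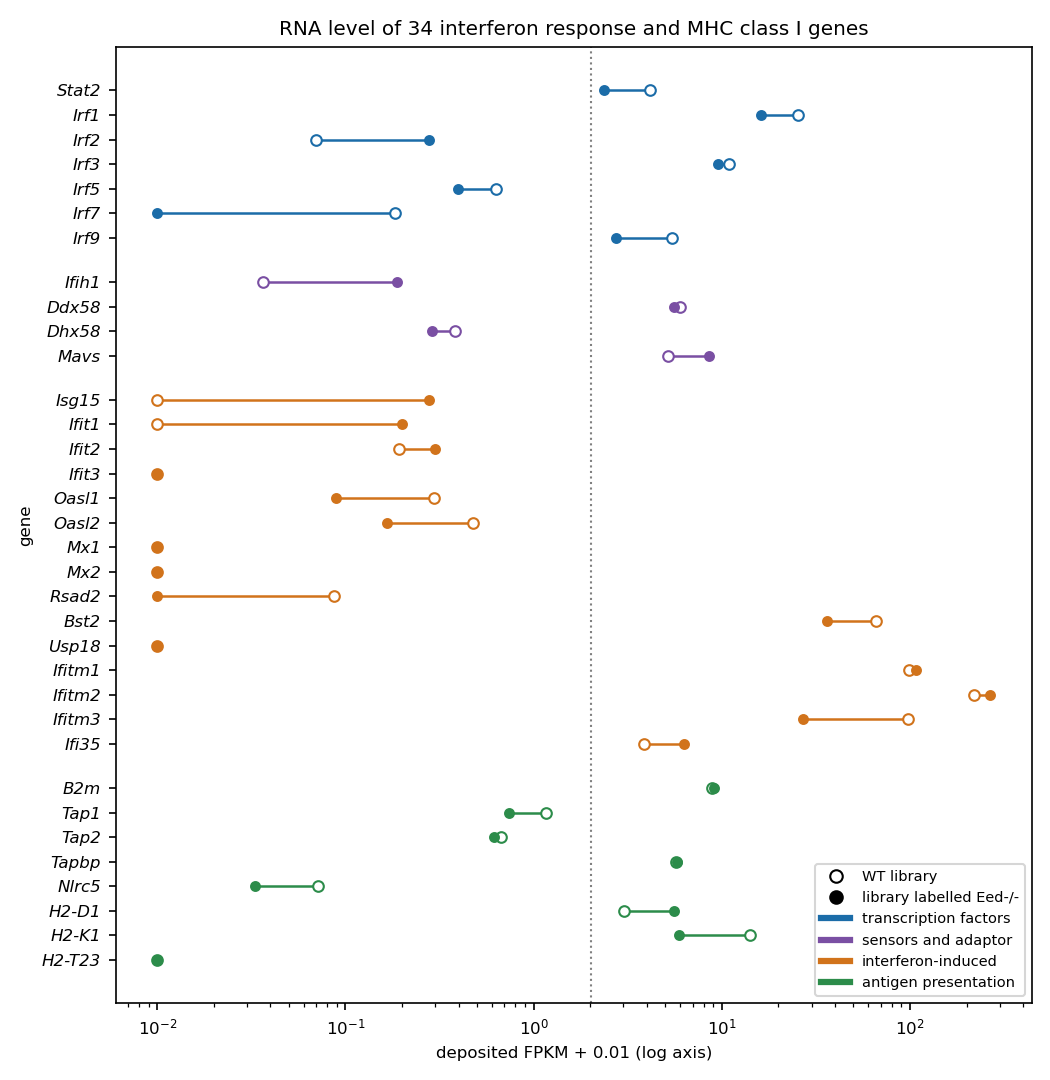
RNA level of each of the 34 genes by role. The x axis is deposited FPKM plus 0.01 on a log axis, open points are WT, filled points the library labelled Eed-/-, lines join the same gene, and the dotted line marks an FPKM of 2. Ifitm1, Ifitm2, Ifitm3 and Bst2 lie at the right, and 5 genes are listed at 0 in both libraries.

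After the filter on low values, 25 of the 34 members had a change. Of these, 0 were called higher and 1, Ifitm3, was called lower, beside 3.80% of 14835 genes called higher and 3.98% called lower. Changes were above 0 for 12 members and below 0 for 13, with a median of -0.03, beside 0.009 over all genes. The whole counting interval of the ratio lay above 1 for 5 of 25 members with an interval and below 1 for 6, beside 24.1% and 22.5% of 13165 genes. These shares are near those of all genes. The 25 members with an interval had fragments in both libraries and were not filtered, so Nlrc5 is among them and Isg15 is not. The plot of change against level shows the members spread among all genes.

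**Figure D2:**
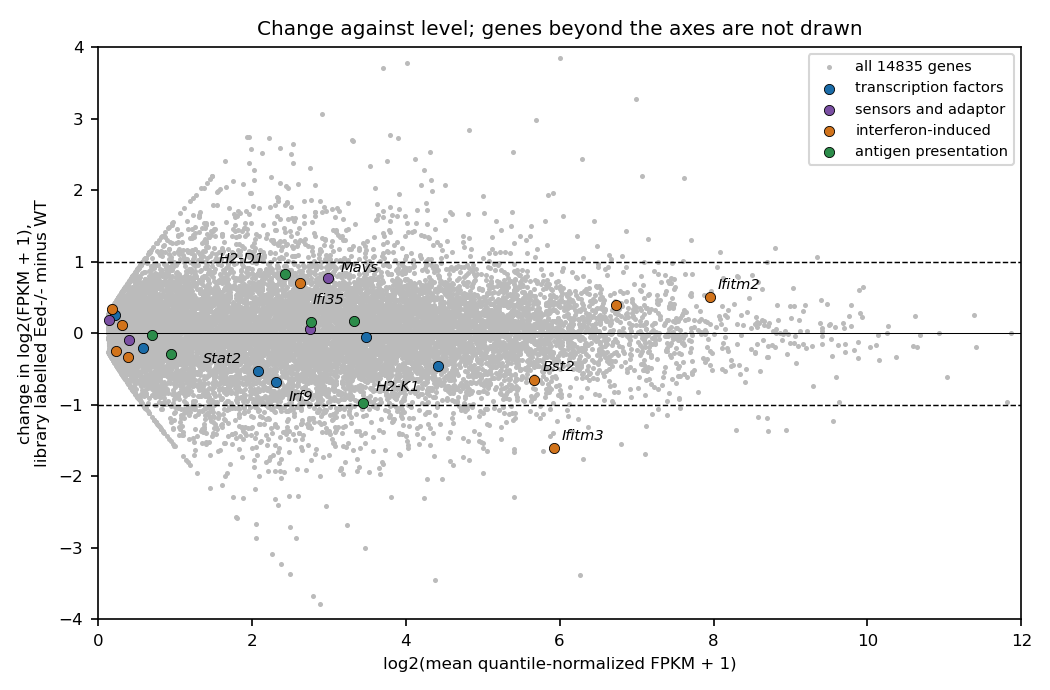
Change against level. The x axis is log2 of the mean quantile-normalized FPKM plus 1, the y axis the change in log2(FPKM + 1), library labelled Eed-/- minus WT. Grey points are all genes past the filter, coloured points the 25 members past it, and dashed lines mark 2-fold. Ifitm3 lies below the lower line and H2-K1 just above it.

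The abundant members of the interferon-induced group did not move together. Ifitm3 restricts virus entry from endosomes and in the mouse embryo also marks early germ cells. It lies on chromosome 7 at chr7:148195485-148196669. Its FPKM was 98.2 in WT against 27.03 in the library labelled Eed-/-, from about 354 and 87.0 fragments. That is a normalized ratio of 0.321 (interval 0.251 to 0.406) and a change of -1.61.

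Ifitm2 and Ifitm1 of the same gene cluster had ratios above 1, neither past 2-fold. Ifitm2, at chr7:148140736-148141882, had an FPKM of 218 in WT against 267 in the library labelled Eed-/-, a ratio of 1.42 (interval 1.28 to 1.57). Ifitm1, at chr7:148153120-148155724, had 98.9 and 108, a ratio of 1.31 (interval 1.15 to 1.49). For Ifitm1 the interval takes in 1 when FPKM are used as deposited (0.964 to 1.24).

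Ratios within a library do not depend on the scaling between libraries. Ifitm3 RNA was 0.993 times that of Ifitm1 in WT and 0.2497 times in the library labelled Eed-/-, a ratio of ratios of 0.252 (interval 0.191 to 0.330). Against Ifitm2 it went from 0.450 to 0.101, a ratio of ratios of 0.225 (interval 0.172 to 0.291). Ifitm1 against Ifitm2 was 0.453 and 0.405, and the interval of its ratio of ratios took in 1 (0.759 to 1.05). The order of the 3 genes was the same in both libraries, but Ifitm3 was about level with Ifitm1 in WT and well below it in the other. The 3 genes are alike in sequence. Of 50-base windows along the longest coding transcript, 10.0% for Ifitm3, 11.1% for Ifitm2 and 6.36% for Ifitm1 also match coding transcripts of other genes. How the counting shared such reads was not given in the sources used here.

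The other genes around the Ifitm cluster were measured too. Of 12 non-members within 100 kb that passed the filter, 0 were called higher and 1 lower, beside 3.80% and 3.98% of all genes. The median change of the 12 was -0.10. The 1 called lower was Sirt3, a mitochondrial deacetylase gene chosen here after its values were seen. It had an FPKM of 6.81 in WT against 1.25 in the library labelled Eed-/-, a change of -1.71. Chromosome 7 as a whole had a median change of -0.01 over 1080 genes.

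Bst2 encodes tetherin, which holds budding viruses at the cell surface, and lies at chr8:74058163-74061336. Its FPKM was 66.1 in WT against 36.1 in the library labelled Eed-/-, a ratio of 0.630 (interval 0.510 to 0.777) and a change of -0.65. The genes of chromosome 8 were lower as a whole, with a median of -0.38 over 702 genes. Of 11 other genes within 100 kb of Bst2, 5 were called lower, beside 3.98% of all genes, and the median of the 11 was -0.55. The part of the chromosome in the value of Bst2 was not tested.

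**Figure D3:**
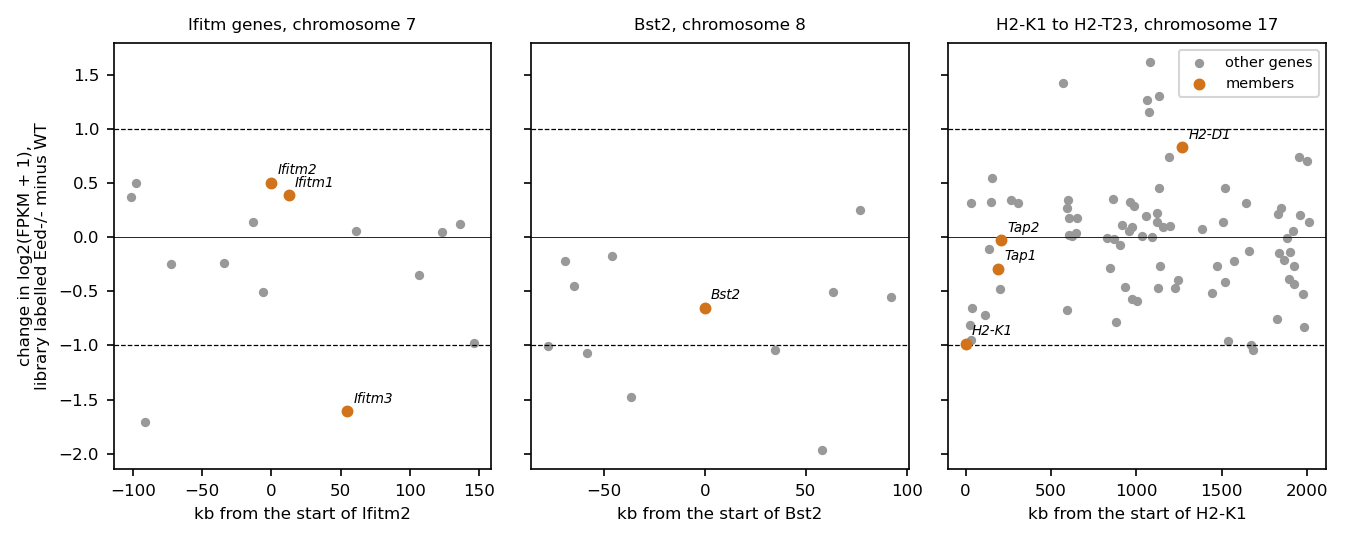
Change of members and of other genes around them. The x axes are distance in kb from the start of Ifitm2 (left), Bst2 (middle) and H2-K1 (right), the y axis the change in log2(FPKM + 1), library labelled Eed-/- minus WT. Orange points are members, grey points other genes past the filter, and dashed lines mark 2-fold. Ifitm3 lies apart from Ifitm1 and Ifitm2, Bst2 lies among lower neighbours, and H2-K1 and H2-D1 lie on opposite sides of 0.

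Ifi35, which encodes an interferon-induced leucine zipper protein, had an FPKM of 3.85 in WT against 6.30 in the library labelled Eed-/-, a ratio of 1.79 (interval 1.13 to 2.88). The remaining 10 interferon-induced genes had an FPKM under 1 in both libraries. Many of these 10 are known to respond strongly to interferon in other cells, but they are grouped here by level only.

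Isg15, a ubiquitin-like modifier, was listed at 0 in WT and had 0.268 in the library labelled Eed-/-, which is about 1.00 fragment. Ifit1, which binds foreign RNA, was listed at 0 in WT and had 0.189 in the other, about 3.02 fragments. Ifit2, of the same family, had 0.184 and 0.288, and the interval of its ratio took in 1. These values rest on at most 6.76 fragments. Oasl1, an OAS-like protein, had 0.284 in WT against 0.0797 in the library labelled Eed-/-. Oasl2 of the same family had 0.468 and 0.157, from about 9.97 and 2.99 fragments, with a ratio interval of 0.0588 to 1.29. Both were lower in the library labelled Eed-/- but within counting error.

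Rsad2, which encodes the antiviral enzyme viperin, had 0.0768 in WT and was listed at 0 in the other. Ifit3, Mx1, Mx2 and Usp18 were listed at 0 in both libraries. A listing of 0 cannot be read as absence here, because Rps28, a ribosomal protein gene that every cell uses, was also at 0 in both libraries and Ppia was at 0 in WT. No upper limit was therefore set for genes at 0. Low values above 0 have a like limit. Gapdh, also used by every cell, had 1.13 in WT against 0.374 in the library labelled Eed-/-. A low listing therefore need not mean little RNA.

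Among the transcription factors, 5 of the 6 past the filter had changes below 0, 0 were past 2-fold, and the median was -0.33, where 7263 of all 14835 genes lay below 0. The counting interval lay below 1 for 3 of the 6, beside 22.5% of all genes with an interval. The members of the factor that binds the ISRE were among them. Stat2, at chr10:127707629-127729905, had an FPKM of 4.14 in WT against 2.35 in the library labelled Eed-/-, a ratio of 0.612 (interval 0.446 to 0.833). Irf9, its DNA-binding partner at chr14:56222408-56228867, had 5.43 and 2.72, a ratio of 0.547 (interval 0.382 to 0.773). Irf9 against Stat2 within a library was 1.31 and 1.16, and this ratio did not differ between the libraries beyond counting error (interval of the ratio of ratios 0.546 to 1.42). Of the windows of Irf9, 2.54% match Rnf31 as well. Irf1, an activator of antiviral and MHC class I genes at chr11:53583516-53591876, had 25.4 and 16.2, a ratio of 0.716 (interval 0.600 to 0.852). It was the most abundant factor in both libraries.

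Irf3, which is activated by phosphorylation downstream of the sensors, had an FPKM of 10.9 in WT against 9.49 in the library labelled Eed-/-, with a ratio interval of 0.746 to 1.24. Irf5, with roles in inflammatory signalling, had 0.619 and 0.385. Irf7, the factor that amplifies interferon production, had 0.174 in WT and was listed at 0 in the other. Irf2, a relative of Irf1 that competes for its sites and lies on chromosome 8, had 0.0600 and 0.269, about 1.00 and 4.00 fragments. The values of Irf5, Irf7 and Irf2 rest on at most 9.23 fragments, too few to tell the libraries apart.

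The sensors of viral RNA were listed at low values apart from Ddx58. Ddx58 encodes RIG-I and had an FPKM of 5.96 in WT against 5.56 in the library labelled Eed-/-, with a ratio interval of 0.825 to 1.33. Its change was 0.06, and it was below 0 with FPKM as deposited. Ifih1, which encodes MDA5, had 0.0267 and 0.179, about 1.02 and 6.12 fragments, with a ratio interval of 0.631 to 239. Dhx58, which encodes LGP2, had 0.372 and 0.278. Mavs, the mitochondrial adaptor on which RIG-I and MDA5 signal, lies at chr2:131059799-131073761. It had 5.16 in WT against 8.54 in the library labelled Eed-/-, a ratio of 1.84 (interval 1.43 to 2.37) and a change of 0.76, below 2-fold.

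The classical class I heavy chain genes differed in opposite directions. H2-K1, at chr17:34132962-34137278, had an FPKM of 14.1 in WT against 5.91 in the library labelled Eed-/-, from about 146 and 54.4 fragments. Its ratio was 0.469 (interval 0.336 to 0.644) and its change -0.98, just short of 2-fold, and it was past 2-fold with FPKM as deposited or with a smaller pseudocount. H2-D1, at chr17:35399675-35404444, had 3.02 and 5.57, a ratio of 2.04 (interval 1.37 to 3.07) and a change of 0.83.

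Within a library, H2-K1 RNA was 4.68 times that of H2-D1 in WT and 1.06 times in the library labelled Eed-/-. The ratio of these ratios was 0.227 (interval 0.134 to 0.383). The genes for the 2 heavy chains were thus unequal in WT and near equal in the other library. Heavy chain genes also share sequence, with 8.87% of windows of H2-K1 and 14.3% of H2-D1 matching other H2 genes. They differ in sequence between mouse strains as well, and reads were mapped to 1 reference genome.

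B2m, the light chain gene at chr2:121973422-121978819, had an FPKM of 8.90 in WT against 9.12 in the library labelled Eed-/-. Its ratio was 1.14 (interval 0.721 to 1.78). Against B2m within a library, H2-K1 went from 1.59 to 0.649, with an interval of 0.233 to 0.720 for the ratio of ratios. H2-D1 against B2m went from 0.339 to 0.611, and its interval took in 1 (0.975 to 3.34).

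For the 3 members that act in peptide loading, the counting interval of the ratio took in 1, and the intervals of Tap1 and Tap2 are wide. Tapbp encodes tapasin, which bridges the peptide transporter and the heavy chain, and had an FPKM of 5.71 in WT against 5.79 in the library labelled Eed-/-, with a ratio interval of 0.863 to 1.504. Tap1 and Tap2 encode the subunits of the transporter. Tap1 had 1.15 and 0.727, with a ratio interval of 0.305 to 1.35. Tap2 had 0.658 and 0.604, with an interval of 0.422 to 2.11, and its change of -0.03 was above 0 under median-ratio scaling. Nlrc5, the transactivator of class I genes, lies on chromosome 8 and had 0.0614 and 0.0229, about 3.01 and 1.00 fragments. H2-T23, a non-classical heavy chain gene with a near-identical copy in the genome, was listed at 0 in both.

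**Figure D4:**
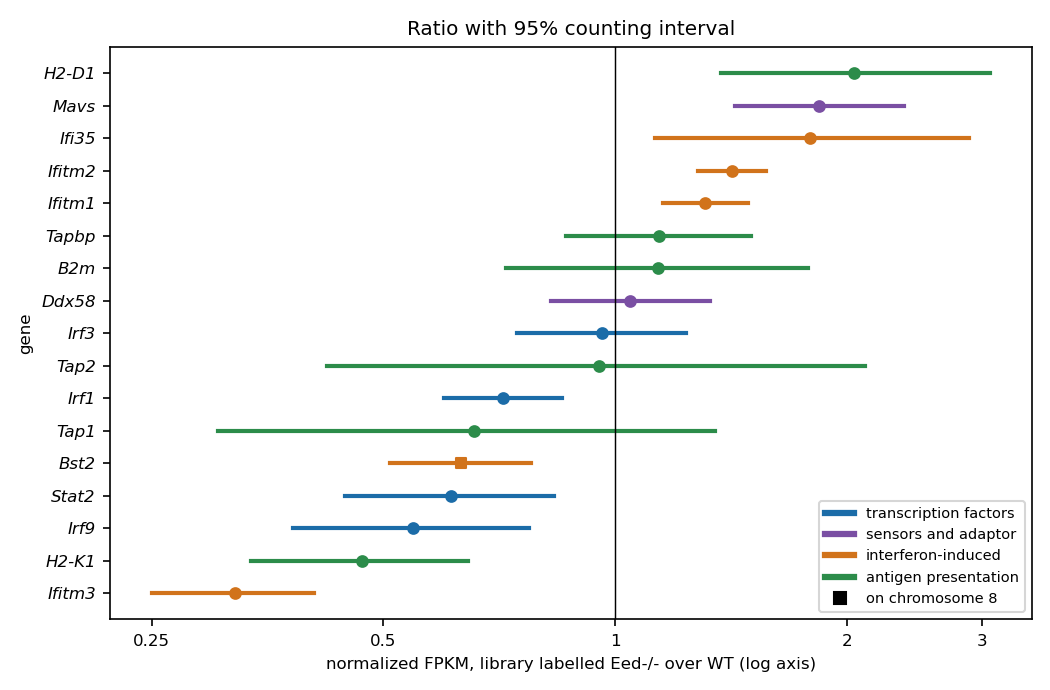
Normalized FPKM of the library labelled Eed-/- over WT, on a log axis, for the 17 members with at least 20 fragments in both libraries together. Points are the ratios, bars the 95% counting intervals, colours the roles, and the square marks Bst2 on chromosome 8. Ifitm3, H2-K1, Irf9, Stat2, Bst2 and Irf1 lie below 1 with their intervals, and H2-D1, Mavs, Ifi35, Ifitm2 and Ifitm1 above it.

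Genes close to the class I genes were measured as well. Of 14 other genes within 100 kb of H2-K1 that passed the filter, 0 were called higher or lower, with a median of -0.04. Some of them, chosen after their values were seen, had changes well below 0. On one side, 24.8 to 35.8 kb from H2-K1, Ring1, H2-Ke6 and Rxrb had -0.81, -0.945 and -0.65, while Slc39a7 among them had 0.31. On the other side, Rgl2 and BC033916 had -0.79 and -0.59, while H2-K2 and Zbtb22 had 0.66 and 0.28. The part of these neighbours in the value of H2-K1 was not tested. Over the 80 other genes from H2-K1 to H2-T23, 5 were called higher and 1 lower, beside 3.80% and 3.98% of all genes. The median of the 80 was 0.02. Chromosome 17 as a whole had a median of 0.04 over 678 genes.

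The other genes of the pathway were read from a list of 91 genes, of which 76 passed the filter. Of these, 4 were called higher and 5 lower, with a median change of 0.07. Of the 7 interferon genes, Ifnb1, Ifna1, Ifna2, Ifna4 and Ifnz were listed at 0 in both libraries, which as above cannot be read as absence. Ifnk had an FPKM of 0.856 in WT against 0.241 in the library labelled Eed-/-, about 3.87 and 0.97 fragments, and Ifne was listed at 0 in WT and had 0.319 in the other.

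The receptors and kinases were present in both libraries, and 0 of these 8 genes were past 2-fold. Ifnar2, a chain of the type I receptor, had an FPKM of 5.86 in WT against 9.10 in the library labelled Eed-/-, a ratio of 1.72 (interval 1.36 to 2.195). Ifnar1, its partner chain, had 4.66 and 5.54, a ratio of 1.32 (interval 1.03 to 1.70), or 1.19 with FPKM as deposited. Jak1, a kinase of all interferon receptors, had 11.1 and 16.1, a ratio of 1.62 (interval 1.41 to 1.85). Tyk2, a kinase of the type I receptor, had 3.62 and 3.82, a change of 0.14. Ifngr1 and Ifngr2, the chains of the type II receptor, had changes of -0.0038 and 0.47. Il10rb and Ifnlr1, the chains of the type III receptor, had changes of -0.48 and 0.51, with an FPKM of at most 1.25.

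Genes of the list past 2-fold upward were Xaf1, Aim2, Oas1a and H2-T10. Xaf1, a pro-apoptotic interferon-induced gene, had an FPKM of 0.629 in WT against 5.01 in the library labelled Eed-/-, a ratio of 8.60 (interval 4.55 to 17.9). Aim2, a sensor of DNA in the cytosol, had 3.23 and 11.8, a ratio of 4.00 (interval 3.00 to 5.41). Oas1a, which makes the messenger that activates RNase L, had 3.40 and 9.25, and H2-T10, a non-classical heavy chain gene, had 0.155 and 1.91. These last values are uncertain, because Oas1a and H2-T10 each have a near-identical copy and share 57.1% and 40.5% of their windows. H2-T22, which shares windows with H2-T10, went the other way, with 0.286 in WT against 1.57e-05 in the library labelled Eed-/-. The part of reads shared between these 2 genes was not tested.

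Genes of the list past 2-fold downward were Psme2, Nod1, Psmb10, Tor3a and Parp9. Nod1, a sensor of bacterial cell walls, had an FPKM of 5.76 in WT against 1.23 in the library labelled Eed-/-, a change of -1.51. Psmb10, a subunit of the immunoproteasome on chromosome 8, had 20.2 and 7.10, a change of -1.23. Psme2, a subunit of the proteasome activator that acts with it, had 6.43 and 1.00, with 59.3% of its windows shared with a pseudogene copy. Its partner Psme1, chosen after its values were seen, has no such copy and had 37.6 and 20.2, a ratio of 0.614 (interval 0.490 to 0.765). Parp9, an interferon-induced ADP-ribosyltransferase family member, had 6.48 and 2.26, a change of -1.09. Tor3a, an interferon-responsive ATPase gene on chromosome 1, where the median change was -0.29, had 20.3 and 7.98, a change of -1.09. Genes of the pathway were thus past 2-fold on both sides, beside 3.80% of all genes called higher and 3.98% called lower.

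Markers of the cell types were read beside these values, since many members are abundant in immune cells. In a bulk sample, fewer cells of a type and less RNA per cell cannot be told apart. The 8 pluripotency markers were high in both libraries, with sums of 1428 and 1608 FPKM. Zfp42, with 131 and 272, was called higher, Nanog had a ratio of 1.83 (interval 1.71 to 1.95) and Utf1 one of 0.766 (interval 0.698 to 0.840). Of the 10 leukocyte markers, the sums were 14.4 in WT against 16.6 in the library labelled Eed-/-, and Laptm5 (7.79 and 10.1), Cd68 (3.74 and 3.64) and Coro1a (2.24 and 2.41) made up most of them. For Laptm5 the counting interval of the ratio lay above 1 (1.15 to 1.84). The defining markers Ptprc, Aif1 and Tyrobp were listed at 0 in both libraries, which as above cannot be read as absence. The 10 fibroblast markers summed to 3.48 and 11.4. Of these, Thy1, with 0.976 and 6.97, was called higher, and Fbln2 had 1.33 and 3.39, a change of 0.97. Col1a1 had 0.460 and 0.137, and Dcn was listed at 0 in both. The 6 endothelial markers summed to 39.4 and 17.1, most of it Pecam1, which is also expressed in mESCs. Pecam1, with 35.1 and 13.1, was called lower, a change of -1.19. The 6 primitive endoderm markers summed to 86.4 and 122, most of it Sparc (71.9 and 67.9), with Lama1 and Col4a1 called higher. All 6 had changes above 0, beside 7558 of 14835 genes. The part of these lists in the values of the members was not tested.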

How the data were processed

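Per the labels, ribosomal RNA was removed from total RNA before dUTP libraries were made. The authors mapped the reads to mm9 and deposited FPKM per gene symbol, made with Cufflinks 2.2.1 according to the submitters' processing notes. These notes name TopHat2 2.0.11 and Bowtie2 2.2.2, and the paper's methods give another TopHat version. The annotation was not given in the sources used here. Samples of the other assays were not used here.

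Repeated symbols (268) were summed, and both libraries were quantile-normalized. Changes used only genes whose normalized FPKM averaged 0.1 or more, with a pseudocount of 1. Counting intervals used neither this filter nor the pseudocount, and needed fragments in both libraries. All 34 members were named, with Eed, those of the other list past 2-fold and its interferons, receptors and kinases. The members and lists were chosen with earlier results of these data known. Depth came from 5103 single-transcript genes no shorter than 1000 bp, less 180 bp each. Of the low values, 80.3% (WT) and 80.2% (Eed-/-) lay within 0.1 of a whole fragment number, where 20% would by chance. Fragment numbers of genes with several transcripts use the longest coding one and are approximate. Positions came from GENCODE vM1, and shared windows from minimap2 2.31. A near-identical copy covers at least 80% of a transcript at 95% identity. The computations were tested on simulated data with Python 3.11.15, numpy 2.4.6, pandas 2.3.3 and scipy 1.17.1. Other scalings, pseudocounts, filters and thresholds were tried.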

Additional observations from a re-analysis of the deposited data

How the results depend on the processing

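No paired analysis was possible because each genotype has 1 RNA-seq library, and no replicate could be left out. The count of members called higher went from 0 to 4 with a pseudocount of 0.1 and to 4 with 0.01, the genes being Irf2, Ifih1, Isg15 and H2-D1 in each case. The count called lower went from 1 to 2 with FPKM as deposited (Ifitm3 and H2-K1), and to 4 with a pseudocount of 0.1 and to 4 with 0.01 (Oasl1, Oasl2, Ifitm3 and H2-K1). A smaller pseudocount calls more genes of low level by its construction, and with 0.1 it called 11.4% of all genes higher and 11.99% lower. Of the other pathway genes, 4 called higher became 8 with a pseudocount of 0.1, 10 with 0.01 and 2 with a 3-fold threshold. The 5 called lower became 12 with a pseudocount of 0.1, 12 with 0.01 and 1 with a 3-fold threshold. Beside these, a pseudocount of 0.01 called 12.9% of all genes higher and 13.4% lower. A 3-fold threshold called 1.02% of all genes higher and 0.923% lower. FPKM as deposited moved the median of all genes from 0.009 to -0.09 and called 3.07% of genes higher and 5.40% lower, and the cause was not tested. The median change of the members lay between -0.08 and 0.06 over the alternatives. Ifitm3 was called lower under each of the 8 alternatives. Leaving out the members on chromosome 8, which was chosen after seeing the data, left 0 called higher, 1 called lower and a median of -0.03. Depth limits the 18 members under an FPKM of 1 in both libraries, of which Tap2 had the most, about 15.6 fragments in WT. As the low listing of Gapdh shows, such values also need not mean little RNA.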
